A study of Arabidopsis thaliana with 6 samples.

Results

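AER (AT5G16970) and AOR (AT1G23740) are Arabidopsis thaliana reductases that remove reactive carbonyls, AER in the cytosol and AOR in the plastid. They were selected by name as the probe sets annotated to either gene alone, which gave 2 genes of 13286 with a probe set of their own, each read by 1 probe set. The pair was picked with its difference between treated and control seedlings already known, and it was picked for moving in opposite directions. Their TNT and DMF values are therefore a description, with no test.

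Reactive carbonyls such as acrolein and 4-hydroxynonenal form when polyunsaturated membrane lipids are peroxidised. Their carbon double bond next to a carbonyl group makes them bind to proteins and glutathione. Both enzymes use NADPH to reduce that double bond, which makes the carbonyl less reactive, and other enzymes act on its aldehyde group. The RefSeq table places AER on chromosome 5 and AOR on chromosome 1.

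All samples were whole seedlings of the wild-type accession Col-0. After 13 days in shaken liquid culture, with 10 seedlings in 100 ml of medium and a 16 h photoperiod, 3 samples received 60 µM 2,4,6-trinitrotoluene (TNT, a nitroaromatic explosive) in 60 µl of dimethylformamide (DMF). The other 3 samples received 60 µl of DMF alone, and RNA was taken 6 h later in both groups, so every sample carried the solvent. Each sample was hybridised to 1 Affymetrix ATH1 array. Whether each replicate had its own flask is not stated, and the spread that the p-values rest on may therefore be technical.

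On the 6 arrays the highest control probe set for bacterial genes lay between 6.34 and 14.3, and this was taken as a floor of detection. Between 73.8% and 80.7% of probe sets lay above it on their array. The array labelled TNT replicate 2 stood apart from the rest of its group. Over the 13648 tested probe sets it correlated at r = 0.975 with DMF replicate 2. Its r was 0.934 and 0.948 with DMF replicates 1 and 3, against 0.888 and 0.906 with TNT replicates 1 and 3. Whether its seedlings were dosed, or its sample labelled, as the title says was not tested, and every difference over all 6 arrays takes the label as given. Results below are therefore given with and without it. The comparison without it was planned as an alternative, but its use as a basis for calls was settled after values had been seen, and leaving out an array for its values can make p-values too small.

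AER stood far above its DMF level on TNT replicates 1 and 3, and below it on TNT replicate 2. Its DMF signals, in linear array units, were 94.7, 81.9 and 99.0 in replicates 1, 2 and 3. Its TNT signals were 432 in replicate 1, 63.1 in replicate 2 and 484 in replicate 3. Thus 2 TNT arrays lay above every DMF array and 1 lay below every DMF array, and the groups overlapped. TNT replicates 1 and 3 lay above every DMF array for 18.8% of tested probe sets. On the log2 scale AER had 6.52 ± 0.14 (SD, n = 3) with DMF and 7.88 ± 1.65 (SD, n = 3) with TNT. The difference over all 6 arrays was 1.37 ± 0.69 (SE), and 119 of the 13648 tested probe sets had a higher one. In whole seedlings, a change in the share of a cell type and a change in RNA per cell cannot be told apart, for AER or for AOR.

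Without TNT replicate 2 the AER difference was 2.32 on the log2 scale, a signal 5.00-fold that of DMF, and 60 probe sets had a higher difference. Set against the DMF array of the same number, the log2 differences of AER were 2.19, -0.38 and 2.29 in replicates 1, 2 and 3. The 2 large ones differed by 0.10 from each other, on arrays whose values were known when AER was picked.

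AOR, the plastid enzyme, was low on TNT replicates 1 and 3 and high on TNT replicate 2. Its DMF signals were 379, 687 and 386 in replicates 1, 2 and 3, and its TNT signals were 173, 715 and 205. TNT replicates 1 and 3 lay under every DMF array, while TNT replicate 2 was the highest of all 6, so these groups overlapped too. TNT replicates 1 and 3 lay under every DMF array for 21.6% of tested probe sets. On the log2 scale AOR had 8.86 ± 0.49 (SD, n = 3) with DMF and 8.20 ± 1.12 (SD, n = 3) with TNT. The difference over all 6 arrays was -0.66 ± 0.52 (SE), with 365 of 13648 probe sets lower.

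Without TNT replicate 2 the AOR difference was -1.31 on the log2 scale, which is 2.47-fold lower than DMF, and 129 probe sets had a lower difference. By replicate number the AOR differences were -1.13, 0.06 and -0.92. AOR on TNT replicate 2 thus stayed within 0.06 of its DMF partner, and 81.2% of tested probe sets differed at least as much between those 2 arrays. For AER, at -0.38 between the same arrays, 16.3% did.

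**Figure D1:**
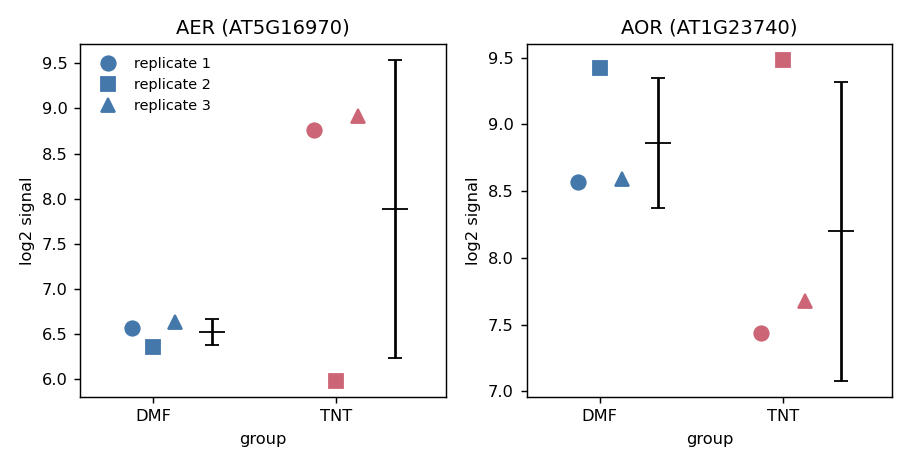
Log2 signal of AER (left) and AOR (right) on each array, by group on the x axis, with the symbol giving the replicate number and the black bar the group mean with SD (n = 3). TNT replicates 1 and 3 lie above the DMF arrays for AER and below them for AOR, while TNT replicate 2 (square) lies on the other side in each panel.

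The DMF arrays were also compared among themselves. Their values are part of the differences known when the pair was picked, so they too are only a description. AOR was higher on DMF replicate 2 than on the mean of DMF replicates 1 and 3 by 0.84 on the log2 scale, and 6.50% of tested probe sets had a gap at least as large in either direction. AOR on DMF replicates 1 and 3 differed by -0.03. AER on DMF replicate 2 was lower than the mean of the other DMF arrays by a log2 gap of -0.24, which 55.3% of probe sets reached. With both arrays numbered 2 left out, the differences were 2.24 for AER and -1.02 for AOR. The size of the AOR difference therefore depended on DMF replicate 2 more than that of AER did.

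Taken as 1 quantity, the log2 difference of AER minus that of AOR was 3.32, -0.43 and 3.21 in replicates 1, 2 and 3. Over all 6 arrays it was 2.03. Seedlings of replicates 1 and 3 thus had similar gaps between the AER and AOR differences, and those of replicate 2 did not. Of 16 other settings, 5 leave a difference of group means as it is by construction. Over the others AER ranged from 0.85 to 2.32 and AOR from -1.31 to -0.28, values of genes chosen for their opposite signs. Without TNT replicate 1 the AOR difference was -0.28 and without TNT replicate 3 it was -0.40. Without DMF replicate 2 it was -0.38. For AER the values without TNT replicate 1 and without TNT replicate 3 were 0.93 and 0.85, and array weights gave 2.08.

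**Figure D2:**
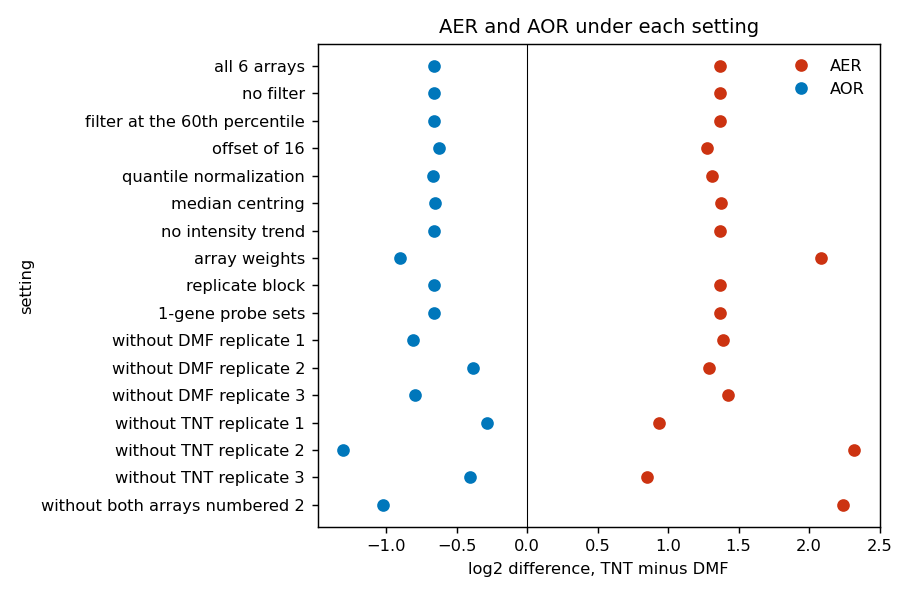
Log2 difference TNT minus DMF (x axis) of AER (red) and AOR (blue) under each setting of the analysis (y axis), with all 6 arrays at the top. AER lies between 0.85 and 2.32 and AOR between -1.31 and -0.28, with the widest moves where an array is left out or weighted; the filters, the intensity trend, the block and the 1-gene restriction cannot change these values.

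Position on the chromosome was not used in the selection. AER lies in a row of loci on chromosome 5, with AT5G16960 on one side and AT5G16980, AT5G16990 and AT5G17000 on the other. The reference table gives these loci no names, and AT5G17000 has no probe set of its own here. AT5G16980, the next gene after AER, had DMF signals of 8.32, 22.7 and 10.02 and TNT signals of 49.5, 18.8 and 49.6. It was thus high on TNT replicates 1 and 3, as AER was, while TNT replicate 2 lay within its DMF range, where AER lay below its own. Its log2 differences by replicate number were 2.57, -0.27 and 2.31.

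AT5G16980 had too low a mean for the filter. In limma without the filter its difference over all 6 arrays was 1.54 ± 0.53 (SE; adjusted p = 0.669), and without TNT replicate 2 it was 2.00 ± 0.47 (SE; adjusted p = 0.0521). It did not pass in either. AT5G16990, the locus after that, had DMF signals of 125, 90.0 and 83.5 and TNT signals of 130, 100.4 and 101. All 3 of its TNT arrays lay near their DMF partners, at log2 differences of 0.06, 0.16 and 0.27, and it did not pass (adjusted p = 0.612 without TNT replicate 2). AT5G16960, before AER, had signals of 3.93 to 9.94 with DMF and 10.8 to 15.4 with TNT, and 3 of its 6 values lay under the bacterial controls. Whether probes for AER also bind transcripts of these neighbours was not tested, since probe sequences were not used here.

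Among the 5 genes on either side of AER, 8 have a probe set of their own and 4 were tested, of which 0 passed without TNT replicate 2. Around AOR, 7 have a probe set of their own and 4 were tested, of which 1 passed. This was AT1G23720, which lies 2 genes before AOR and fell by 1.36 on the log2 scale (limma adjusted p = 0.0254 without TNT replicate 2). Its signals were 179, 295 and 154 with DMF and 82.3, 108 and 74.4 with TNT. All 3 of its TNT arrays lay under every DMF array, TNT replicate 2 included, so its order of arrays was not that of AOR. Groups did not overlap for 12.3% of tested probe sets. The call was lost when TNT replicate 1 or TNT replicate 3 was left out as well (adjusted p up to 0.163). Over all 6 arrays its difference was -1.21 ± 0.27 (SE; adjusted p = 0.476). The gene after AOR, AT1G23750, differed by -0.63 without TNT replicate 2 and did not pass.

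**Figure D3:**
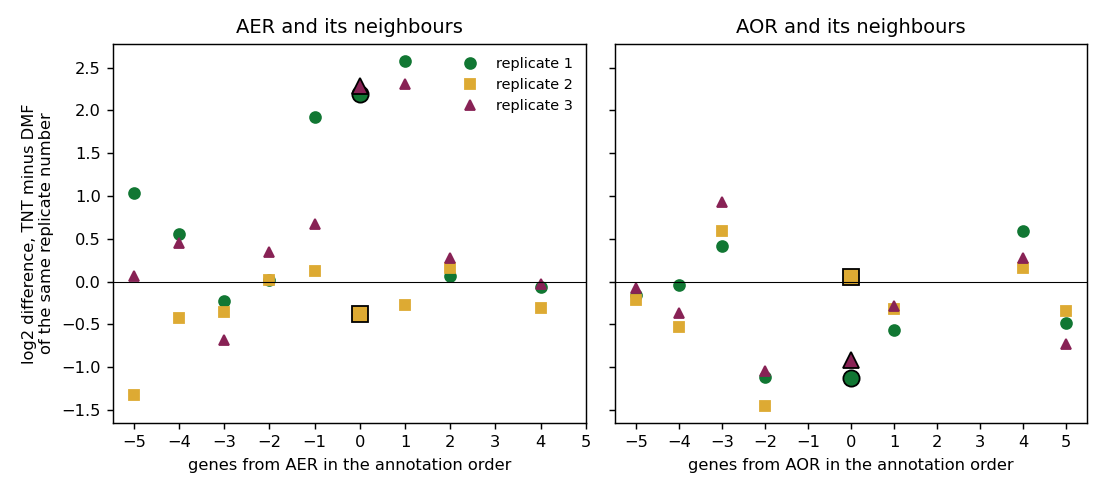
Log2 difference TNT minus DMF of the same replicate number (y axis) for AER (left) and AOR (right), drawn larger at 0, and for the genes up to 5 places before and after each in the annotation order (x axis; a gap means no probe set of its own). The gene 1 place after AER, at 2.57, -0.27 and 2.31, lies close to AER in all 3 replicates, and the gene 2 places before AOR is lower in all 3.

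The other genes were read against the background of the whole array. In limma over all 6 arrays 0 of 13648 probe sets passed (0.0%), with 1195 at an unadjusted p under 0.05. Without TNT replicate 2, 947 passed (6.94%), of which 504 were higher with TNT (3.69%) and 443 lower (3.25%). Of 73 other genes in 5 lists on reactive carbonyls, 29 have a probe set of their own and 23 were tested. None of these 23 passed over all 6 arrays, with 2 at an unadjusted p under 0.05, and 3 rose, 0 fell and 20 did not pass without TNT replicate 2. Their median log2 difference was 0.03 over all 6 arrays and 0.07 without TNT replicate 2, against -0.02 and -0.04 for all tested probe sets. None of the 17 listed genes of carbonyl formation, such as lipoxygenases, has a probe set of its own here, so that side of the pathway was not analysed. The annotation used gives no gene for 8730 of the 22746 non-control probe sets. A listed gene without a match may therefore still be on the array.

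Of 10 loci listed with AER as possible relatives, 8 have a probe set of their own and 6 of those were under the filter. The 2 tested ones did not pass. AT5G16990 is described above, and AT1G65560 differed by -0.44 without TNT replicate 2 (limma adjusted p = 0.297), with signals of 50.4 to 56.2 with DMF and 33.5 to 45.0 with TNT.

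The list set beside AOR holds other loci chosen as possible quinone and alkenal oxidoreductases, most of which the reference table leaves unnamed. All 8 with a probe set of their own were tested. Without TNT replicate 2, 1 rose, 0 fell and 7 did not pass, at differences from -0.15 to 0.41. AT4G21580 rose by 0.88 ± 0.14 (SE; limma adjusted p = 0.0130). Its signals were 143, 153 and 156 with DMF and 285, 173 and 271 with TNT. Every TNT array thus exceeded every DMF array, by less on TNT replicate 2. Over all tested probe sets, groups did not overlap in either direction for 12.3%. Over all 6 arrays AT4G21580 differed by 0.65 ± 0.21 (SE; adjusted p = 0.514). NQR (AT3G27890), an NAD(P)H:quinone reductase, had signals of 220 to 245 with DMF and 196 to 246 with TNT, and its difference of 0.09 without TNT replicate 2 did not pass.

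The list of other carbonyl-removing enzymes had 12 tested genes, 7 aldehyde dehydrogenases and 5 listed as glyoxalases, enzymes of the pathway that removes methylglyoxal. Without TNT replicate 2, 1 rose, 0 fell and 11 did not pass. ALDH7B4 (AT1G54100), an aldehyde dehydrogenase known from dehydration and salt stress, rose by 1.18 ± 0.20 (SE; limma adjusted p = 0.0165). Its signals were 528, 339 and 388 with DMF and 975, 395 and 883 with TNT. TNT replicates 1 and 3 exceeded every DMF array, as for 18.8% of all tested probe sets, while TNT replicate 2 lay within the DMF range. Over all 6 arrays the difference of ALDH7B4 was 0.76 ± 0.35 (SE; adjusted p = 0.586).

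ALDH11A3 (AT2G24270), a cytosolic glyceraldehyde-3-phosphate dehydrogenase of the same superfamily, had DMF signals of 436, 468 and 441 and TNT signals of 274, 611 and 327. Its order matched that of AOR on the TNT arrays, with replicates 1 and 3 under every DMF array and replicate 2 above. Its difference without TNT replicate 2 was -0.58 and did not pass (limma adjusted p = 0.0577). It passed in that comparison with the replicate block (adjusted p = 0.00321) and with array weights (adjusted p = 0.0112). ALDH3F1 (AT4G36250), a dehydrogenase of fatty aldehydes, differed by -0.30 and did not pass (adjusted p = 0.327). The 5 glyoxalase genes differed by -0.10 to 0.41, and GLX2-4 (AT1G06130), at the upper end, did not pass (adjusted p = 0.300).

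The calls of AT4G21580 and ALDH7B4 held without both arrays numbered 2 (adjusted p = 0.0129 and 0.0160), where 1374 probe sets passed (10.1%). Both were lost when DMF replicate 3, TNT replicate 1 or TNT replicate 3 was left out as well as TNT replicate 2, with adjusted p up to 0.150 and 0.154. With the replicate number as a block, 0 of the 23 passed over all 6 arrays, while 7 passed without TNT replicate 2, where DMF replicate 2 has no partner. Of these 7, 4 rose and 3 fell, the latter being ALDH11A3, ALDH3F1 (adjusted p = 0.0206) and ALDH6B2 (adjusted p = 0.0476). Array weights over all 6 arrays called 4 as higher and 2 as lower, ALDH3F1 (adjusted p = 0.0409) and AT1G65560 (adjusted p = 0.0333).

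**Figure D4:**
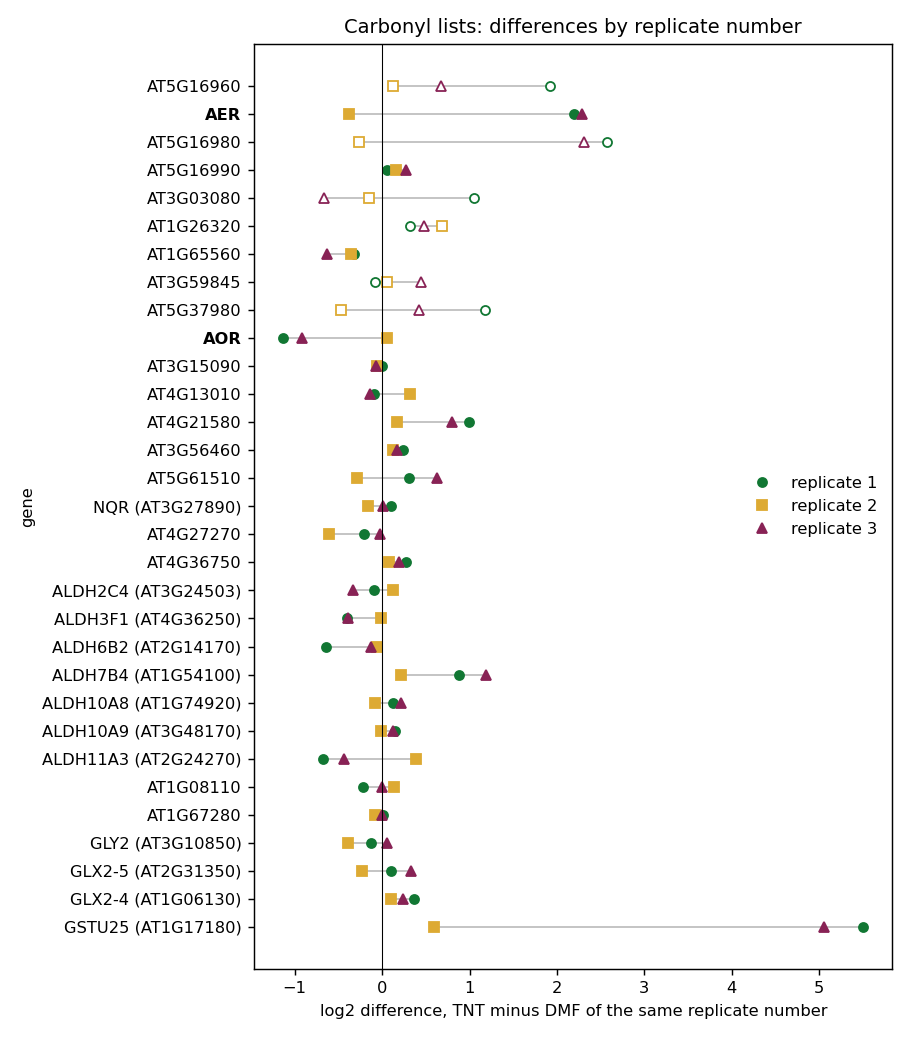
Log2 difference TNT minus DMF of the same replicate number (x axis) for AER, AOR and the listed genes with a probe set of their own (y axis), with open symbols for genes under the filter. AER, AT5G16980 and GSTU25 have replicates 1 and 3 above 2 and replicate 2 below 1, and AOR has replicates 1 and 3 near -1.

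Of 11 genes listed for the response to electrophiles, a class that reactive carbonyls belong to, GSTU25 (AT1G17180) alone has a probe set of its own here. GSTU25 is a tau-class glutathione S-transferase that conjugates TNT. Its signals were 10.5, 18.2 and 15.9 with DMF and 478, 27.4 and 529 with TNT. The DMF signals lay close to the highest bacterial controls of those arrays, 6.34, 14.3 and 9.19. GSTU25 rose by 5.12 ± 0.26 without TNT replicate 2 (SE; limma adjusted p = 6.56e-05). Over all 6 arrays it differed by 3.72 ± 1.02 (SE; adjusted p = 0.477). In 13 alternatives of the comparison without TNT replicate 2 the difference ranged from 4.08 to 5.28. TNT replicates 1 and 3 were far above the DMF arrays, as for AER, but TNT replicate 2 was also above its DMF partner, by 0.59 on the log2 scale, whereas AER was lower there.

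Markers of green tissue and of roots were read as a check on the whole seedlings. Both kinds were present, with RCA, the activase of Rubisco, at signals of 2166 to 3213 and PYK10, a root glucosidase, at 2598 to 3339. Of the 22 genes in the nuclear photosynthesis list 4 were tested, and without TNT replicate 2, 2 fell and 2 did not pass. SBPASE (AT3G55800), a Calvin cycle enzyme, fell by 0.88 (limma adjusted p = 0.0208). Its signals were 1213, 1140 and 1324 with DMF and 586, 1088 and 752 with TNT. PRK (AT1G32060), phosphoribulokinase of the same cycle, fell by 0.71 (adjusted p = 0.0341). The call of SBPASE was lost in 4 of 14 alternatives (adjusted p up to 0.196) and that of PRK in 7 of 14 (up to 0.257), median centring among them for both. LHCB4.1, a light-harvesting protein, differed by 0.23 and RCA by -0.30, and neither passed. The mean log2 signal of these 4 genes lay between 10.8 and 11.1 with DMF and between 10.5 and 10.7 with TNT.

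Of the 8 root genes 3 were tested, and their mean log2 signal was 7.64 to 7.85 with DMF and 6.75 to 7.46 with TNT. EXPA18 (AT1G62980), a root hair expansin, fell by 1.35 without TNT replicate 2 (adjusted p = 0.0126), a call lost in 3 of 13 alternatives, each with another array left out (up to 0.125). EXPA7 at -1.22 (adjusted p = 0.0604) and PYK10 at 0.01 did not pass. The part of these tissue markers in the AER and AOR values was not tested. Over all 6 arrays 0 of these 7 markers passed, with 4 at an unadjusted p under 0.05.

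The genes whose log2 signals were most like AER over the 6 arrays, by Pearson correlation among 7292 other tested genes with a probe set of their own, were BIGYIN, AT5G56350, AT4G23470, AT5G19350 and AT5G37740. BIGYIN (AT3G57090), a protein of mitochondrial and peroxisomal fission, had the highest value at r = 0.999. Its signals were 225, 215 and 234 with DMF and 345, 201 and 368 with TNT. Like AER it was high on TNT replicates 1 and 3 and lowest of all on TNT replicate 2, but over a much narrower range. AT5G56350 (r = 0.998) went from 243 to 257 with DMF to 606, 211 and 607 with TNT. The other 3 had r of 0.995 to 0.998.

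Most like AOR were AT5G20885, AT1G19835, AT5G59480, AT2G39850 and AT1G71810, none of which the reference table names, at r of 0.994 to 0.998. AT2G39850 had DMF signals of 47.7, 94.1 and 57.6 and TNT signals of 22.9, 93.1 and 29.4. All 5 were highest on the arrays numbered 2 in both groups, which is the order seen for AOR. Of the 7292 genes compared, 136 reached r = 0.95 with AER and 184 with AOR, and 157 and 139 reached that size with a negative sign. The points share the split between TNT replicates 1 and 3 and the other 4 arrays, so r is a description of these 6 arrays only.

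**Figure D5:**
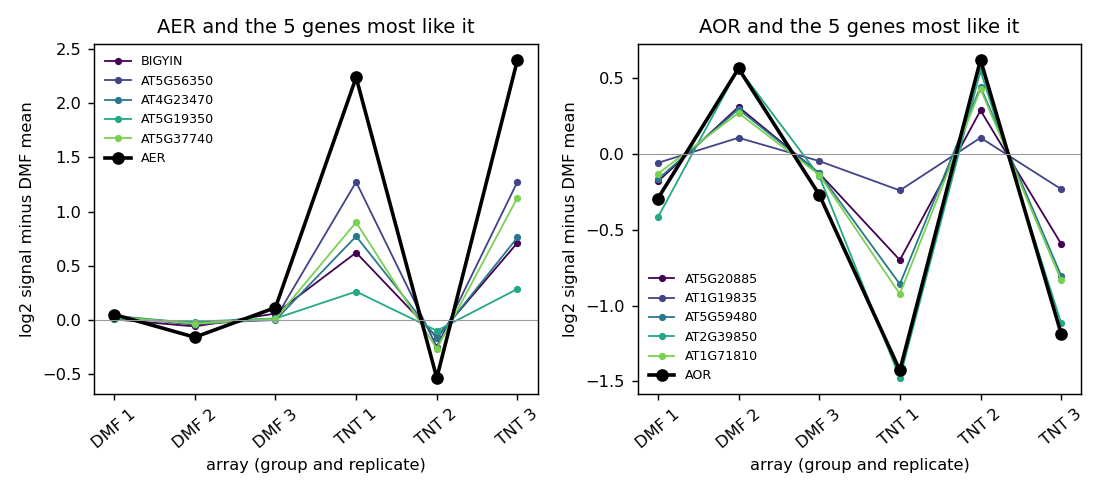
Log2 signal minus the gene's DMF mean (y axis) on each array (x axis) for AER (left) and AOR (right) in black, with the 5 genes most like each in colour; lines join the values of 1 gene and imply no order of arrays. The genes beside AER are high on TNT replicates 1 and 3, and those beside AOR are high on both arrays numbered 2 and low on TNT replicates 1 and 3.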

How the data were processed

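Per the submitters' processing notes the authors made the deposited intensity values, which are linear signals per probe set, with MAS5 and GCOS; no version is given in the sources used here. Each array had the same mean without the top and bottom 2%, 100.01, so arrays had been scaled to a common level, and a change in total RNA cannot be seen. Signals were taken to log2 with no offset. Probe sets whose mean log2 signal reached the 40th percentile were fitted with limma 3.58.1 in R 4.3.3 (lmFit, eBayes with an intensity trend, two-sided, Benjamini-Hochberg over all 13648, threshold 0.05). Of 22746 non-control probe sets 13513 match 1 gene in the platform annotation, and 13436 of these took a name from the TAIR10.1 RefSeq table. The build behind the array is not stated, so no coordinates are given.

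The members, the gene lists and the tests were chosen with earlier results of these data known. Named genes were the members, list genes called without TNT replicate 2 or up to 4 per list by p, and the 5 most correlated with each member. Neighbours were added after the values were seen, as were GLX2-4, AT5G16980 and AT5G16960, which were named for their place or value. TNT replicate 1 carries no replicate number in its title and took the number left over. Samples with the same number deviated together from their group means (r = 0.54, 0.47 and 0.43 for numbers 1, 2 and 3). Within a group of 3 these deviations cancel for each probe set, so likeness of the arrays numbered 2 alone can raise all 3 values. Samples of unlike number were not compared in this way. Whether the numbers pair the samples was therefore not settled, and the main fit does not pair them. No 2 arrays held identical values. The number of arrays limits the precision.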

Additional observations from a re-analysis of the deposited data

How the results depend on the processing

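AER and AOR were chosen for their signs, so that these signs recur across settings supports nothing, and 5 of the 16 settings cannot change the 2 differences. With single arrays left out, AER ranged from 0.85 to 2.32, AOR from -1.31 to -0.28 and their gap from 1.22 to 3.63. The value of AOR without TNT replicate 2, -1.31, moved by more than its spread over replicate pairs. The count of 0 called probe sets became 2896 with array weights, 3 without DMF replicate 2, 947 without TNT replicate 2 and 1374 without both arrays numbered 2, and the count of listed carbonyl genes went from 0 to 6, 0, 3 and 3. With single arrays left out these counts ranged from 0 to 947 and from 0 to 3. The replicate block left both counts at 0 over all 6 arrays. Alternatives of the comparison without TNT replicate 2, chosen after seeing the data, gave 2897 probe sets and 5 listed genes with array weights. They gave 3733 and 7 with the replicate block, which has 1 residual degree of freedom, and 407 probe sets among those matching 1 gene, where fewer are tested. With 1 more array left out these ranged from 179 to 1374 and from 1 to 3, the lowest without TNT replicate 1. Where 1 TNT array is left, the fit takes its spread from the DMF arrays. Weights over all 6 arrays were 5.00 for DMF replicate 3 and 2.78 for TNT replicate 3. They were 0.84 for TNT replicate 1, 0.76 for DMF replicate 1, 0.43 for DMF replicate 2 and 0.26 for TNT replicate 2. The weighted fit thus rested mostly on the arrays numbered 3. Causes of these changes were otherwise not tested. Signals near the bacterial controls limit the loci beside AER.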
